A study of Rattus norvegicus with 12 samples.

Results

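The voltage-gated sodium and calcium channels open when the membrane of an excitable cell depolarizes, and most are built from a pore-forming subunit and auxiliary subunits. They were taken here as every row of the deposited count table whose symbol begins with Cacna, Cacnb and a digit, or Scn followed by a number and a or b, with a count above 0 in at least 1 column. This gave 32 genes of the 18800 symbols in the table: 10 sodium channel alpha subunits, 4 sodium channel beta subunits, 10 calcium channel alpha1 subunits, 4 alpha2delta subunits and 4 calcium channel beta subunits. The measured values played no part in the choice beyond that count. Brain tissue of Sprague-Dawley rats was profiled by RNA sequencing in 3 groups. Control rats were restrained without electroacupuncture, and the labels name no operation for them, although the table calls their columns sham. Model rats had middle cerebral artery occlusion with reperfusion (MCAO/R), a blockage and reopening of a large brain artery, and were restrained in the same way. Electroacupuncture rats had the same operation and restraint, and current was applied through needles at the Tianfu, Chize, Kongzui and Taiyuan points. The labels give no brain region, side, age, sex or time after the operation.

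The table has 11 columns. Columns of the same group formed 3 pairs with variance at 1.34 to 1.4 times that of sampling, against 4.75 or more for other such pairs; each pair was summed and counted once, since the data do not separate it from 1 sample measured in duplicate. The comparisons rest on 3 control samples (A, B, C), 2 model samples (A, B) and 3 electroacupuncture samples (A, B, C), with 9335913 to 23835724 counts each. Over all genes with 20 or more counts in the pair, columns of different groups stood at 3.65 to 29.5 times the variance of sampling. Electroacupuncture C stood at 3.65 to 6.17 from the control columns, against 7.63 and 7.735 from the columns of electroacupuncture B. Nothing in the labels ties the samples to separate animals, and the p-values therefore speak only of variation among the samples at hand, some or all of it possibly technical. Marker genes of brain regions differed between samples. The summed level of 10 hippocampal markers was 455 to 503 CPM (counts scaled by library size with edgeR's TMM factors) in controls and 114 to 160.5 CPM in the model. Electroacupuncture A stood apart from the other electroacupuncture samples: hippocampal markers summed to 189 CPM against 401 CPM in both B and C, 9 markers of striatal medium spiny neurons to 4746 CPM against 309 and 157 CPM, and 6 glutamatergic markers to 203 CPM against 1351 and 1284 CPM. All 8 pan-neuronal markers were present, with sums of 8405 to 9381 CPM in controls, 6821 and 11367 in models A and B, and 4416, 9556 and 8031 CPM in electroacupuncture A, B and C. Cell type markers also differed between control and model. Those of glutamatergic neurons summed to 1176 to 1465 CPM in controls against 339.8 and 939 in models A and B. Those of GABAergic neurons summed to 422 to 511 against 795 and 740, and to 697, 508 and 577 in electroacupuncture A to C. The GABAergic markers did not move together. Averaged over the list, log2(CPM + 1) was 0.39 and 0.06 above the control mean in models A and B. Sst, Gad1, Slc32a1, Lhx6 and Vip lay above every control in both models. Pvalb (37.2 CPM in model A) and Npy (2.19 CPM in model B) lay below every control in 1 model, and Gad2 was at 0 in some samples. Markers of microglia summed to 202 to 285 against 632 and 329, and to 801, 303 and 293 in electroacupuncture A to C. Their part in the channel values was not tested. In bulk tissue, fewer cells of a type and less RNA per cell cannot be told apart.

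Each sodium channel alpha subunit or calcium channel alpha1 subunit forms a complete pore with its own voltage sensors. Sodium channels carry the upstroke of the action potential, and their beta subunits are single-pass membrane proteins that tune gating and help place the channel in the membrane. Calcium channels admit the calcium that triggers transmitter release (P/Q- and N-type), that signals to enzymes and the nucleus (L-type) or that shapes burst firing near the resting potential (T-type). Intracellular beta subunits and extracellular alpha2delta subunits bring the pores of the P/Q-, N- and L-type channels to the cell surface. The alpha2delta-1 and alpha2delta-2 proteins are the binding sites of gabapentin.

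A T-type calcium channel and a sodium beta subunit measured lower in the model than in controls, and another T-type channel and an alpha2delta subunit measured higher. Cacna1h was 4.31-fold and Scn3b 3.55-fold lower in estimate in the model, and Cacna1g was 2.25-fold and Cacna2d2 2.2-fold higher. These were the sizes in the fitted edgeR model, and 0 of the 30 members that passed the filter on low counts passed an adjusted p of 0.05 in edgeR's quasi-likelihood test, where 1 of all 15487 genes tested did (0.00646%). At an unadjusted p under 0.05, 5 of the 30 were higher (7.61% of all genes were) and 4 lower (6.2%), together 30% against 13.8%. Both model samples lay above every control for 9 members (18.2% of all genes) and below every control for 8 (19.6%), together 56.7% against 37.8%. By the sign of the estimate 16 were higher (51.5% of all genes) and 14 lower (48.5%). The median log2 fold change of the 30 was 0.22, also with Scn11a at its lower bound, against 0.02 over all genes. A member that is detected in 1 group alone enters the filter through that group, so these counts describe the members that passed and support nothing about the rest.

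Calls depended on the fit. DESeq2 on the same 8 samples called 5 members (4.93% of all genes), among them Cacna1h, Cacnb2 and Scn3b. The same 5 were called by edgeR when all 11 columns entered as separate libraries (7.37% of all genes). Without electroacupuncture A, which enters the shared estimate of spread, edgeR called 5 members (3.7% of all genes), among them Scn3b (adjusted p = 0.0122), Cacna1h (0.0276) and Cacna2d2 (0.042). With control and model samples alone it called Scn3b (adjusted p = 0.0315, 1.95% of all genes). Without model A, where model B alone stands for its group and is assumed to vary like the others, it called Scn1a (adjusted p = 0.0369, 2.23% of all genes). Scn11a is among the 5 members called by the first 3 of these fits, but it entered the test only through the model samples, and its call supports nothing.

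**Figure D1:**
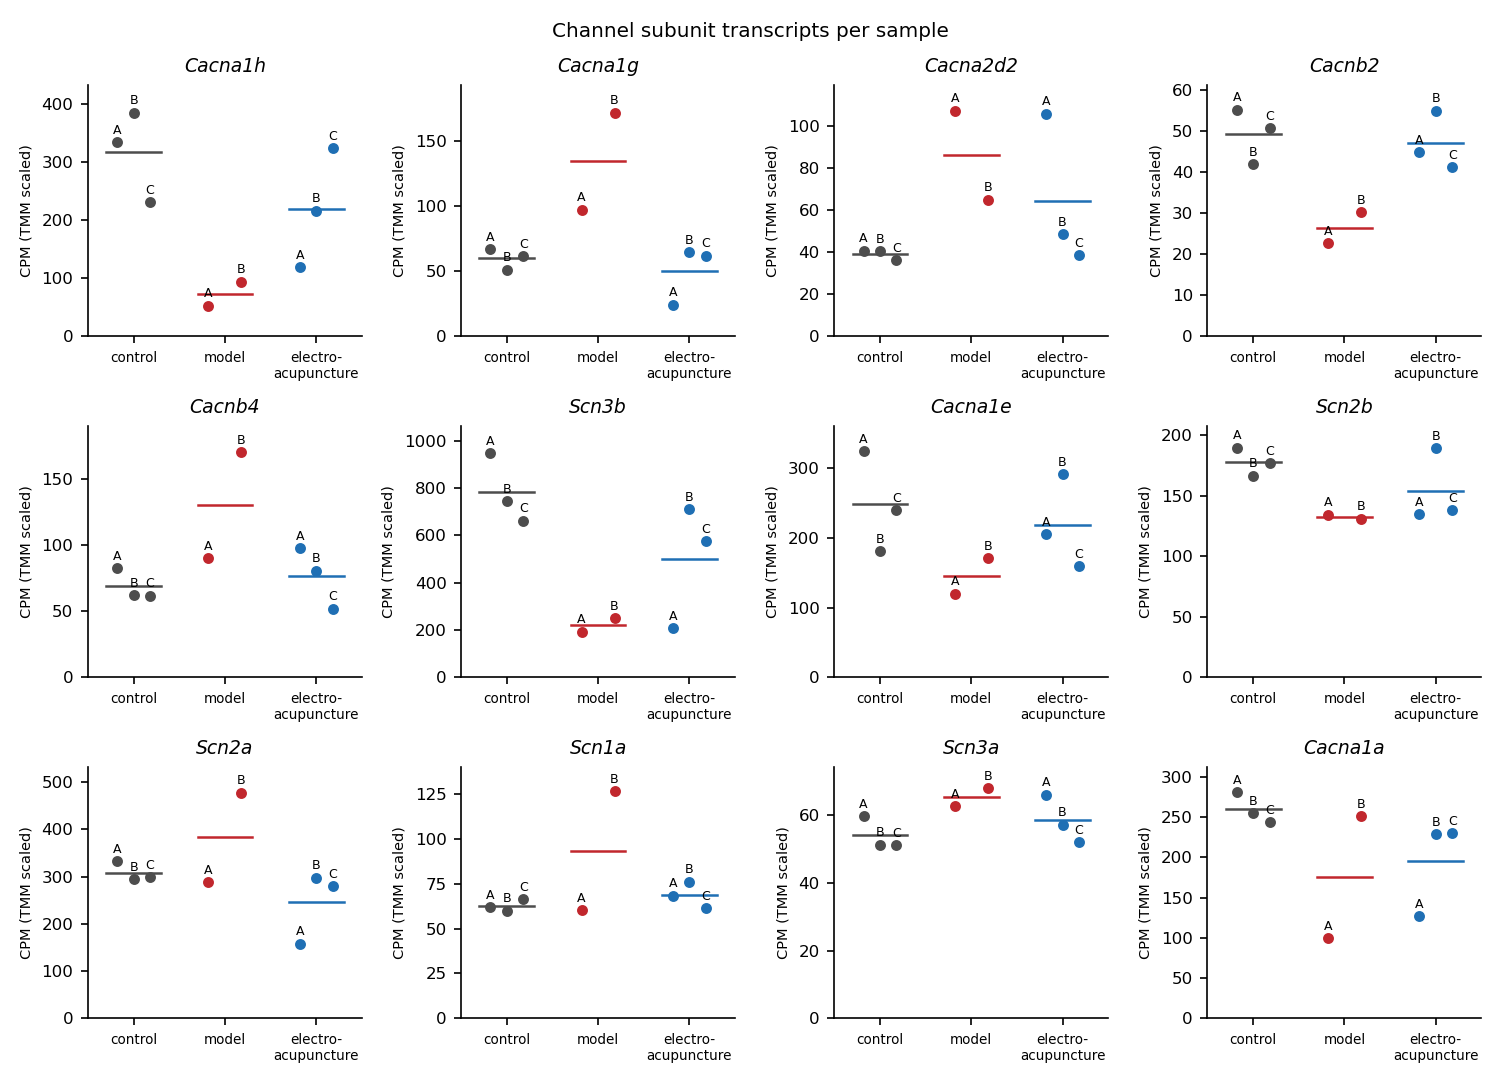
Level of 12 channel transcripts (y axis, CPM with TMM scaling, starting at 0) in each of the 8 samples, by group; dots are samples with their letters and lines are group means. Both model samples sit below every control for Cacna1h, Cacna1e, Cacnb2, Scn3b and Scn2b and above every control for Cacna1g, Cacna2d2, Cacnb4 and Scn3a, and electroacupuncture A lies near the model for Scn3b and near model A for Cacna1a.

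None of the brain sodium channel alpha subunits passed in edgeR, and for Scn1a and Scn2a model B was the highest sample. Scn2a encodes Nav1.2, a channel of unmyelinated axons and excitatory neurons. It measured 333, 295 and 299 CPM in controls A to C, 289 and 478 in models A and B, and 158, 298 and 281 in electroacupuncture A to C. The model and control groups overlapped, and electroacupuncture A was the lowest sample. Scn1a encodes Nav1.1, the channel of fast-spiking interneurons whose loss causes Dravet syndrome. It measured 61.8, 59.9 and 66.5 CPM in controls, 60.1 and 127 in the model and 68.4, 76 and 61.3 after electroacupuncture, so that 1 sample, model B, was higher than all others. Its log2 fold change in the model was 0.57 (SE 0.28, edgeR adjusted p = 0.413). Without model B the estimate was -0.07.

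Scn3a, which encodes Nav1.3, a channel of the embryonic brain that is known to return in injured neurons, lay in a narrow range. It measured 59.7, 51.3 and 51 CPM in controls, 62.6 and 68 in the model and 66, 57.1 and 52.1 after electroacupuncture. Both model samples were above every control, by a log2 fold change of 0.27 (SE 0.15, edgeR adjusted p = 0.454). Scn8a encodes Nav1.6, the main channel of mature axon initial segments and nodes. It measured 17, 13.9 and 17.6 CPM in controls, 5.36 and 15.1 in the model and 17.4, 27.6 and 11.4 after electroacupuncture, and the groups overlapped in every comparison.

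Alpha subunits usually assigned to skeletal muscle, glia and sensory neurons were low, and the group difference of Scn11a rests on few counts. Scn11a encodes Nav1.9, a channel of pain-sensing neurons. It had no count in the 3 controls, 18 and 25 counts in model A and B, and 2, 1 and 0 counts with electroacupuncture. Against 3 counts over the control libraries together, the model mean of 1.17 CPM was at least 11.9-fold higher. Scn11a passed the filter on low counts only through the model samples, so this is a description of the counts and no test of it is given. Scn9a, or Nav1.7, another channel of peripheral pain and of the hypothalamus, measured 2.38, 1.93 and 3.21 CPM in controls, 8.47 and 4.76 in the model and 10.5, 2.21 and 1.79 after electroacupuncture, so model A and electroacupuncture A were the highest. Scn7a, a sodium-sensing channel of glia, measured 0.227 to 0.917 CPM in controls, 1.55 and 0.931 in the model and 2, 0.638 and 0.527 after electroacupuncture. Scn4a, the skeletal muscle channel Nav1.4, measured 0.641 to 1.28 CPM in controls, 0.107 and 0.328 in the model, and 0.607 to 1.37 CPM with electroacupuncture. Its log2 fold change was -1.96 in the model (SE 0.72, edgeR adjusted p = 0.294) and 2.32 for electroacupuncture against model (SE 0.72, edgeR adjusted p = 0.239). Scn4a had 2 and 6 counts in models A and B and passed the filter on low counts only through the other groups. These values are therefore a description, and its tests support nothing. Scn10a, or Nav1.8, had 0 to 4 counts in each sample and did not pass the filter. Of 6 sensory neuron markers Calca, Isl1 and Pou4f1 were at 0 in at least 1 sample, and the list summed to 12.2 to 14.4 CPM in controls and 14.9 and 10.3 CPM in model A and B. The 8 muscle markers summed to 96.5 to 120.3 CPM in controls and 119 and 86.2 CPM in model A and B, with Ckm at 0 in 1 or more samples. The part of other cell types in these low counts was not tested.

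Among the sodium channel beta subunits, Scn3b encodes a protein that keeps alpha subunits available for opening. It measured 948, 745 and 662 CPM in controls A to C, 193 and 249.7 in models A and B, and 208, 711 and 576 in electroacupuncture A to C. Both model samples were below every control, and electroacupuncture A lay between them. The log2 fold change was -1.83 in the model (SE 0.49, edgeR adjusted p = 0.188) and 1.17 for electroacupuncture against model (SE 0.48, edgeR adjusted p = 0.349). Without electroacupuncture A the second value was 1.54 and passed (edgeR adjusted p = 0.0377, 1.82% of all genes called). Across the samples hippocampal markers were low in the same 3 (both models with electroacupuncture A), and their part in the Scn3b difference was not tested.

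Scn2b, a disulfide-linked partner of the alpha subunit, measured 189.6, 167 and 177 CPM in controls, 134 and 131 in the model and 135, 189 and 138 after electroacupuncture. Both model samples were below every other sample, by a log2 fold change of -0.42 against control (SE 0.19, edgeR adjusted p = 0.375). The ratio of Scn3b to Scn2b, which does not depend on scaling between samples and was chosen after the values were seen, was 5, 4.48 and 3.74 in controls, 1.44 and 1.91 in the model, and 1.54, 3.76 and 4.17 with electroacupuncture.

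Scn4b, a beta subunit that supports the resurgent current of fast-firing neurons and is abundant in the striatum, differed in 1 sample. It measured 257 CPM in electroacupuncture A and between 8.12 and 23.8 CPM in the other 7 samples. Striatal marker sums were 4746 CPM in that sample and at most 701 CPM elsewhere, with all 9 markers above 0 in every sample, so the high Scn4b value came with a high level of striatal markers. Model A, with the next highest striatal sum of 701 CPM, had 13.7 CPM of Scn4b. The log2 fold change of Scn4b was 2.67 for electroacupuncture against control and -0.44 without electroacupuncture A.

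Of the calcium channel pores, 2 T-type genes differed from control in opposite directions in estimate. Cacna1h encodes Cav3.2, a T-type channel of the dentate gyrus and other brain areas that has been linked to epileptic bursting. It measured 335, 385 and 231 CPM in controls A to C, 52.7 and 94.3 in models A and B, and 119, 216 and 324 in electroacupuncture A to C. Both model samples were below all 6 others. The log2 fold change was -2.11 in the model (SE 0.48, edgeR adjusted p = 0.169) and 1.58 for electroacupuncture against model (SE 0.47, edgeR adjusted p = 0.222). Cacna1g encodes Cav3.1, the T-type channel of thalamic relay neurons. Its levels were opposite, at 66.9, 51 and 61.6 CPM in controls, 97.3 and 172 in the model and 24.4, 64.8 and 62 after electroacupuncture, with both model samples above all 6 others. Its log2 fold change was 1.17 in the model (SE 0.42, edgeR adjusted p = 0.286) and -1.41 for electroacupuncture against model (SE 0.42, edgeR adjusted p = 0.221). Without model B, the sample with the highest level, the value in the model was 0.69.

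The balance of these T-type genes separated the model from both other groups. The ratio of Cacna1h to Cacna1g CPM was 5, 7.53 and 3.76 in controls, 0.542 and 0.549 in the model, and 4.89, 3.34 and 5.22 with electroacupuncture. The ratio was chosen after the values were seen and has no test. All electroacupuncture samples were nearer to the controls than to the model in this ratio. As a share of T-type CPM, which is not corrected for gene length, Cacna1h made up 80.3%, 85.3% and 74.6% in controls, 33.6% and 33.4% in the model, and 68.6%, 71.5% and 81.8% with electroacupuncture. Cacna1i, or Cav3.3, the slow T-type channel of the reticular thalamus, measured 15.4, 15.5 and 17.1 CPM in controls, 7.02 and 16.1 in the model and 30.2, 21.4 and 9.91 after electroacupuncture, with overlap between all groups. The 8 thalamic markers summed to 72 to 98.3 CPM in controls, 164 and 89.9 in models A and B, and 128, 94.7 and 72.8 CPM in electroacupuncture A, B and C. Neocortical markers summed to 284 to 354 CPM in controls and to 514 and 1420 CPM in model A and B. The part of these regions and of the hippocampus in the T-type values was not tested.

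**Figure D2:**
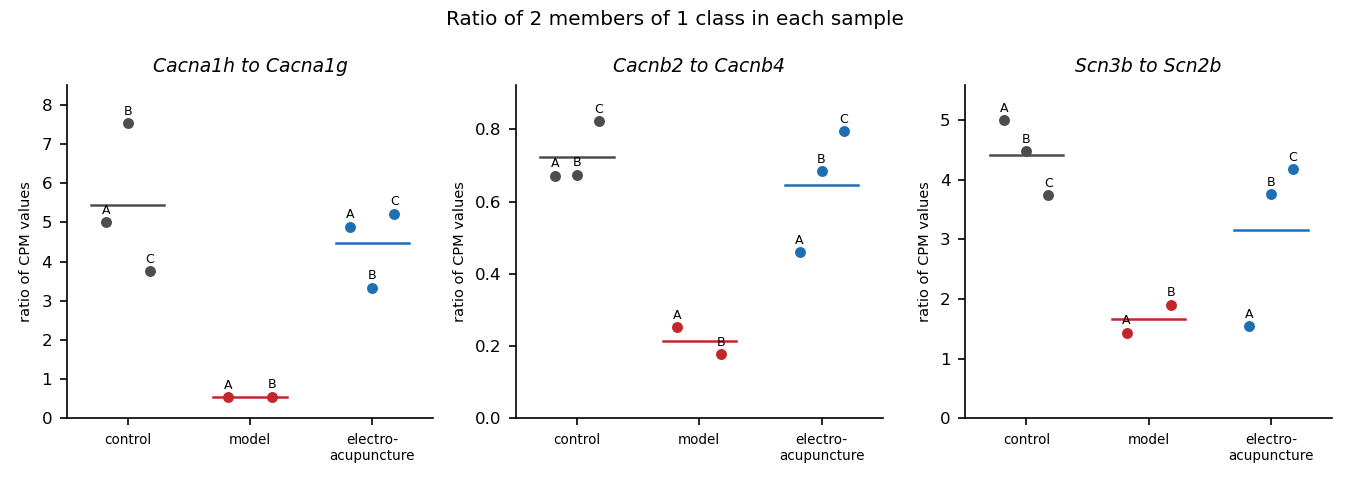
Ratio of the CPM values of 2 genes of 1 class (y axis, no unit, starting at 0) in each sample, by group; dots are samples and lines are group means. The ratio of Cacna1h to Cacna1g is 0.542 and 0.549 in the model and at least 3.34 in every other sample, whereas for Scn3b to Scn2b electroacupuncture A (1.54) lies beside the model.

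The high-voltage-activated pores were lower in model A than in every control, except Cacna1f and Cacna1s, while model B was near or above control for several. Cacna1a encodes Cav2.1, the P/Q-type channel that drives transmitter release at most central synapses. It measured 281, 255 and 244 CPM in controls, 99.7 and 251 in the model and 127, 229 and 229.7 after electroacupuncture. Cacna1b, the N-type channel Cav2.2, measured 81.7, 85.6 and 88.4 CPM in controls, 74.5 and 134 in the model and 60.9, 93.1 and 77.8 after electroacupuncture. Cacna1e, the R-type channel Cav2.3, measured 324, 181 and 239.7 CPM in controls, 120.0 and 171 in the model and 206, 292 and 159 after electroacupuncture. For Cacna1e both model samples lay below every control, with a log2 fold change of -0.77 (SE 0.34, edgeR adjusted p = 0.377).

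The L-type channels couple depolarization to gene transcription. Cacna1c, or Cav1.2, measured 108, 81.6 and 96.1 CPM in controls, 55.5 and 79.1 in the model and 71, 86.4 and 63.5 after electroacupuncture. The model samples were below every control by a log2 fold change of -0.50 (SE 0.22, edgeR adjusted p = 0.368). Cacna1d, or Cav1.3, measured 168, 165 and 142 CPM in controls, 75.6 and 157 in the model and 90, 141 and 142 after electroacupuncture. The retinal Cacna1f (at most 1.2 CPM in any sample) and the skeletal muscle Cacna1s (0.0917 to 3.18 CPM) were low throughout, and Cacna1s had 58 counts in model B against 1 to 10 counts elsewhere.

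The alpha2delta subunits differed in direction in estimate. Cacna2d1 measured 307, 226 and 235 CPM in controls, 181 and 393 in the model and 100.025, 234 and 178 after electroacupuncture, and the groups overlapped. Cacna2d2 measured 40.7, 40.5 and 36.1 CPM in controls, 107 and 64.9 in the model and 106, 48.5 and 38.5 after electroacupuncture. Both model samples were above every control (log2 fold change 1.14, SE 0.42, edgeR adjusted p = 0.292), and the highest values belonged to model A and electroacupuncture A, the samples with the highest striatal marker sums. Cacna2d3, a subunit needed for normal hearing and pain sensing, measured 66.1, 49.1 and 71.1 CPM in controls, 21.8 and 55.3 in the model and 94.8, 72.5 and 49.4 after electroacupuncture. Its log2 fold change for electroacupuncture against model was 0.91 (SE 0.43, edgeR adjusted p = 0.416). Cacna2d4, the retinal subunit, had 0 to 3 counts in each sample and was the other member that did not pass the filter.

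Among the calcium channel beta subunits, Cacnb2 measured lower and Cacnb4 higher in both model samples than in every control. Cacnb2, the main beta subunit of heart L-type channels that is also found in neurons, measured 55.3, 41.9 and 50.8 CPM in controls A to C, 22.7 and 30.3 in models A and B, and 44.9, 55.1 and 41.3 in electroacupuncture A to C. Both model samples were below all 6 others, and the electroacupuncture and control ranges overlapped. The log2 fold change was -0.90 in the model (SE 0.21, edgeR adjusted p = 0.172) and 0.83 for electroacupuncture against model (SE 0.21, edgeR adjusted p = 0.178). Cacnb4, whose loss causes the lethargic mouse, measured 82.3, 62.2 and 61.7 CPM in controls, 89.9 and 170.4 in the model and 97.7, 80.6 and 52 after electroacupuncture. Its log2 fold change in the model was 0.92 (SE 0.34, edgeR adjusted p = 0.292). The ratio of Cacnb2 to Cacnb4, also chosen after the values were seen, was 0.671, 0.675 and 0.823 in controls, 0.253 and 0.178 in the model, and 0.46, 0.683 and 0.795 with electroacupuncture. Cacnb1, a beta subunit of skeletal muscle and brain, measured 134 to 198 CPM over all 8 samples, with a log2 fold change of -0.18 in the model (SE 0.19, edgeR adjusted p = 0.703).

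Cacnb3 had the widest range, as a fold between lowest and highest sample, among the members above 1 CPM in every sample. It did not follow the groups. It measured 233 CPM in control A, 366 CPM in model B, 266 CPM in electroacupuncture A and 193 CPM in electroacupuncture C. In control B, control C, model A and electroacupuncture B it measured 5, 5.13, 5.47 and 5.7 CPM. Each group held high and low samples, with none in between, and both columns of each summed pair fell on the same side. The deposited values were whole numbers in the 5 high columns and had decimals in the 6 low columns. Its nearest neighbours in the RefSeq annotation of assembly GRCr8, Adcy6 and Ddx23, showed no such step: Adcy6 measured 18.8 to 29.9 and Ddx23 47.7 to 71.8 CPM, relative to the column total, over the 11 columns. A step of at least 8-fold between the same 5 and the same 6 columns, with at least 1 CPM on the high side, was found for 15 genes including Cacnb3, and in the opposite direction for 14 genes. Steps of that size between any neighbouring columns in order of level were found for 401 genes, and for 1 other member, Scn4b. Whether they reflect expression or how reads were assigned to genes was not tested. With these sets of columns as a term in the edgeR fit, an alternative chosen after seeing the data, Cacna1h had a log2 fold change of -2.19 (SE 0.51, adjusted p = 0.263) and Cacnb2 of -0.91 (SE 0.23, adjusted p = 0.292) in the model. Within the high set Cacna1h averaged 335 CPM in controls, 94.3 in the model and 221 after electroacupuncture, and within the low set 308, 52.7 and 216 CPM. In both sets the direction was the same for 11 of the 12 members followed in model against control. It was the same for 8 of 12 in electroacupuncture against model, and for 7 of 12 in electroacupuncture against control. The members followed were chosen by their p in the same samples, which favours 1 direction in both sets. The share over all genes was not computed, so these counts support nothing. Each set holds 1 model sample.

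**Figure D3:**
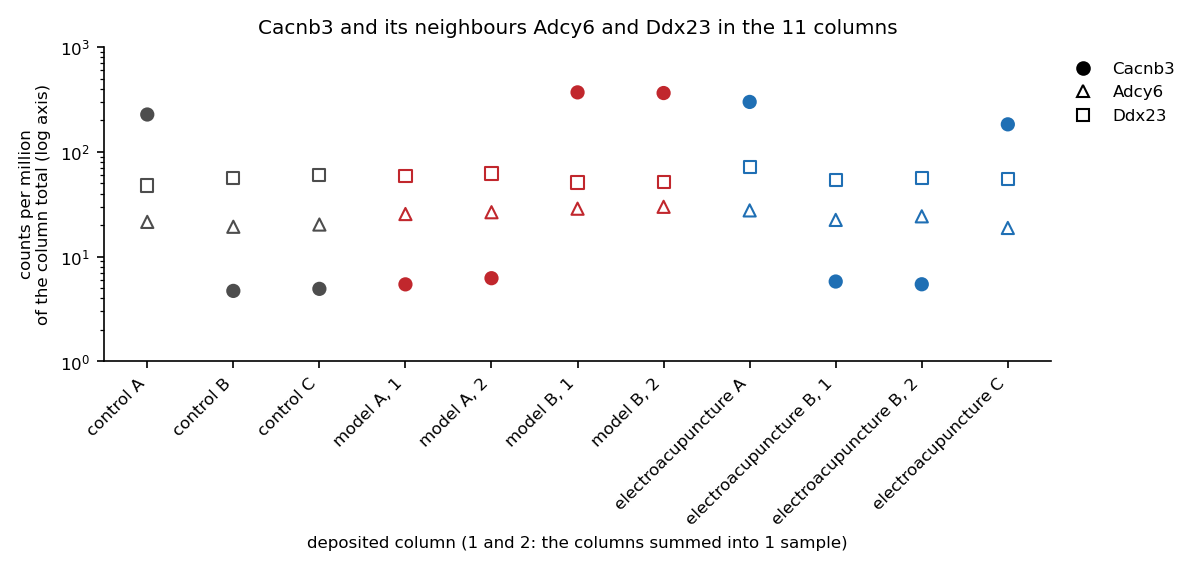
Level of Cacnb3 and of its neighbouring genes Adcy6 and Ddx23 (y axis, CPM relative to the column total, log axis) in each of the 11 deposited columns; colours mark the groups and numbers the columns that were summed into 1 sample. Cacnb3 stands between 183 and 369 in 5 columns and between 4.71 and 6.23 in the other 6, while the neighbours stay between 18.8 and 71.8.

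The upstream sequences of these beta subunit genes are shown because Cacnb2 had the smallest p of any member in electroacupuncture against model and Cacnb3 the step between columns. RefSeq windows (GRCr8) were found for 22 of the 32 members and none for the other 10, among them Cacna1h, Cacna1g and Scn3b. The 250 bases before each annotated start are printed 5′ to 3′ on the plus strand, with capitals for the GC box GGGCGG on either strand, a motif bound by SP-family factors (overlapping matches run together). Cacnb2 has more than 1 annotated start, and gene counts do not tell them apart.
Cacnb2, chr17:82472965-82473214: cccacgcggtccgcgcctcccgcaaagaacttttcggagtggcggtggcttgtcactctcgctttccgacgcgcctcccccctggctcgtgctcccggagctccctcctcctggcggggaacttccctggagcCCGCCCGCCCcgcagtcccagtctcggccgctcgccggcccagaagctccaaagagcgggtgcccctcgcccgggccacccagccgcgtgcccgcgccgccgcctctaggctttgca
Cacnb2, chr17:82596542-82596791: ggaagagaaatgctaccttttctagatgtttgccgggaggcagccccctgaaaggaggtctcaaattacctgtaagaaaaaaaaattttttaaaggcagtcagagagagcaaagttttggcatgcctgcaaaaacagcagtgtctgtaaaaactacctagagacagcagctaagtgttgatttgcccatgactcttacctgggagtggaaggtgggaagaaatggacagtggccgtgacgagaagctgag
Cacnb3, chr7:131666301-131666550: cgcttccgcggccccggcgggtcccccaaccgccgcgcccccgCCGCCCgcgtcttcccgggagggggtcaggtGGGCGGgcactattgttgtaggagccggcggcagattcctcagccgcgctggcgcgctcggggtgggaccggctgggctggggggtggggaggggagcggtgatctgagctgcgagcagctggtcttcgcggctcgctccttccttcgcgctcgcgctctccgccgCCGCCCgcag
The first Cacnb2 window holds 2 matches and 73.2% G or C, the second none and 45.6%, and the Cacnb3 window 3 matches and 76.4%. The motif was present in 13 of the 25 windows of the members (52%) and in 30.5% of all 33469 windows of that length. A match is a description of the letters in the window and not evidence of binding.

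Treated and untreated rats with the same operation were compared next. Of the members that separated the model from control, Cacnb2 and Cacna1h were higher and Cacna1g lower in estimate with electroacupuncture, each with no overlap between the groups. This comparison and model against control share the model samples, so a low or high model value moves both in opposite directions. Of the 30 members 0 passed in edgeR's quasi-likelihood test, nor did any other gene (0%). At an unadjusted p under 0.05, 4 were higher (6.3% of all genes were) and 3 lower (7.18%), together 23.3% against 13.5%. Every electroacupuncture sample lay above both model samples for 4 members (12.9% of all genes) and below them for 2 (11.7%), together 20% against 24.6%. In estimate 15 members were higher (53.4% of all genes) and 15 lower (46.6%). The median log2 fold change was -0.04 against 0.03 over all genes. DESeq2 called Cacna1h, Cacnb2 and Cacna1g (4.45% of all genes), and edgeR on 11 separate columns called 7 members (10.9% of all genes), among them these 3 with Scn3b. Scn11a and Scn4a are in that count too. Each passed the filter only through groups where it is high, so their calls support nothing.

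Among the members whose groups overlapped, Scn8a had a log2 fold change of 0.88 (SE 0.49), Cacna1e of 0.59 (SE 0.34), Cacnb4 of -0.76 (SE 0.34), Cacna2d1 of -0.75 (SE 0.42) and Scn2a of -0.64 (SE 0.31). Their edgeR adjusted p ran from 0.387 for Cacnb4 to 0.522 for Cacna1e. Cacna1b had an estimate of -0.43 (SE 0.27), and of 0.06 without model B.

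**Figure D4:**
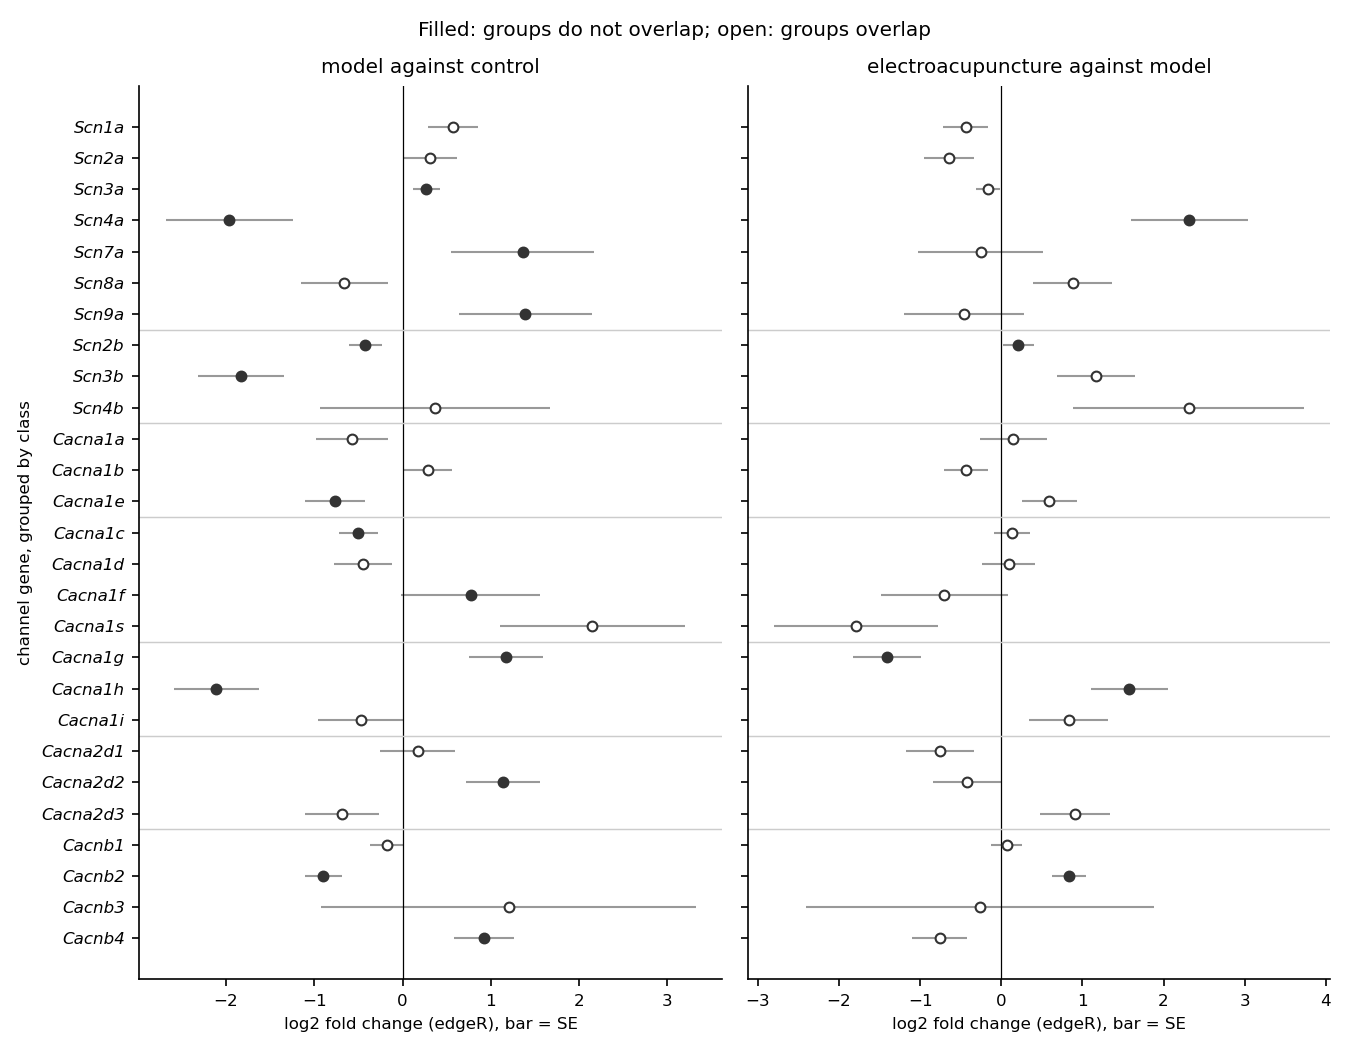
Log2 fold change (x axis) of 27 tested channel genes, grouped by class, for model against control (left) and electroacupuncture against model (right); bars are standard errors, filled points mark groups that do not overlap, and Scn11a is left out because its controls are at 0. Cacna1h, Scn3b and Cacnb2 lie left of 0 on the left and right of 0 on the right, Cacna1g the other way, and the panels share the model samples.

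Electroacupuncture against control compares treated rats with rats for which no operation is named. None of the 30 members passed in edgeR, none had an unadjusted p under 0.05 (3.66% of all genes did, 2.71% higher and 0.956% lower), and none was called by DESeq2 (0.00646% of all genes) or by edgeR on 11 columns (0% of all genes). The groups did not overlap for 10% of the members against 10.9% of all genes (5.98% higher, 4.88% lower), and every electroacupuncture sample lay below every control for Cacna1a and Cacna1d. In estimate 16 members were higher (50.8% of all genes) and 14 lower (49.2%). Cacnb2 differed by a log2 fold change of -0.07 (SE 0.18), Cacna1g by -0.25 (SE 0.38), Cacna1h by -0.53 (SE 0.40) and Scn3b by -0.66 (SE 0.42). The last 2 were at -0.23 and -0.29 without electroacupuncture A. Scn9a (0.93, SE 0.70) and Cacna1i (0.36, SE 0.43) were higher in estimate, and without that sample they were at -0.32 and -0.02. Cacna2d2 had an estimate of 0.72 (SE 0.38), Cacna2d1 of -0.58 (SE 0.38), Cacna1c of -0.37 (SE 0.19), Scn2b of -0.21 (SE 0.17) and Scn3a of 0.11 (SE 0.14).

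Partners of the channels were taken from 9 lists of 63 symbols. In these, 1 gene stands under both of its symbols, Fam155a, which was tested, and Nalf1, which had no row. Of the symbols 60 were tested, and 0 passed in any comparison in edgeR. In model against control 7 had an unadjusted p under 0.05 with a higher and 6 with a lower estimate (7.61% and 6.2% of all genes). In electroacupuncture against model there were 3 and 4 (6.3% and 7.18% of all genes), and in electroacupuncture against control 1 and 0 (2.71% and 0.956%). Regulators of calcium channels stood at both ends. Rem2, a small GTPase that blocks high-voltage-activated calcium channels through their beta subunit, measured 24.9, 18.1 and 23.4 CPM in controls, 6.59 and 1.59 in the model and 38.4, 20.2 and 22.3 after electroacupuncture (log2 fold change in the model -2.43, SE 0.59, edgeR adjusted p = 0.172). Stac2, an adaptor that slows the inactivation of L-type channels, measured 25.8, 27.4 and 21.7 CPM in controls, 52.8 and 154 in the model and 24.2, 47.1 and 29.4 after electroacupuncture (2.05, SE 0.45, edgeR adjusted p = 0.156). For both genes the model samples lay outside all 6 others.

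All 10 anchors of the axon initial segment and node, where sodium channels cluster, were lower in estimate in the model, with a median log2 fold change of -0.20. Over all genes 48.5% were lower and 51.5% higher in estimate, with a median of 0.02, and the counts of the lists that follow are to be read beside these shares. Ank3, which encodes the ankyrin-G that anchors sodium channels, was at 6.73 CPM in model B and at 236 to 361 CPM in the other 7 samples, a gap in 1 sample that was named after its values were seen. The anchor with the smallest p was Sptbn4, the beta-IV spectrin of initial segments and nodes (306, 365 and 271 CPM in controls against 173 and 236 CPM in the model). Of 4 fibroblast growth factor homologous factors, which bind the tail of sodium channels, 3 were higher in estimate. Fgf12 measured 113, 115 and 107 CPM in controls, 168 and 224 in the model and 72.2, 129 and 111 after electroacupuncture. Among intracellular calcium release channels, 3 of 6 were lower in estimate, and Ryr3, the ryanodine receptor of the hippocampus and striatum, measured 92.4, 82.2 and 83.2 CPM in controls, 48.5 and 29.2 in the model and 88.7, 82 and 62.3 after electroacupuncture (-1.14, SE 0.25, edgeR adjusted p = 0.156). Of 9 scaffolds that hold calcium channels at release sites, 6 were higher in estimate in the model, and Rims4 (log2 fold change 0.91) and Erc1 (-0.94) had the smallest p.

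In the remaining lists the medians were between -0.46 and 0.13 in the model. The gamma subunit list, whose members mostly regulate AMPA receptors, had 4 of 7 lower in estimate, with Cacng8 at -1.77 (SE 0.48) and Cacng5 at 1.92 (SE 0.79). The sodium leak channel complex had 3 of 4 lower, with Unc79, a large accessory protein, at -0.60 (SE 0.20). Calcium sensors had 6 of 9 higher, with Caln1 at 0.91 (SE 0.32). All 5 genes on the list of ubiquitin ligases and their adaptors were lower in estimate, by a median of -0.20.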

How the data were processed

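Poly(A)-selected RNA of rat brain tissue was sequenced as paired-end libraries made with dUTP strand marking, per the labels' protocols. The authors deposited an estimated count per gene with up to 2 decimals, not normalized. The submitters' processing notes name DESeq2 1.16.1, featureCounts 1.5.0-p3, HISAT2 2.0.5 and StringTie 1.3.3b, with no role or order. Adapters carried molecular identifiers, per the labels' protocols. The genome build was not given in the sources used here, nor the handling of multi-mapped reads, the strand setting or whether identifiers were collapsed. Of the 32 channel genes, 12 had whole values in every column, and values of near-identical or overlapping genes are uncertain. Cacna1h, Scn3b and Cacna2d2 had whole values in 0 of the 11 columns, Cacnb2 in 1 and Cacna1g in 8. What the handling of shared reads did to their levels was not tested.

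Column names gave the group but not the labelled sample, and 3 columns named as sham were taken as the control group of 4 labelled samples. Values were rounded, 4 symbols on 2 rows were summed, and columns of 1 group under 2 times the sampling variance (over genes with 20 or more counts in the pair) were summed. All 8 samples of the 3 groups entered 1 fit with edgeR 4.0.16 (R 4.3.3; TMM scaling, default expression filter, robust dispersion, two-sided quasi-likelihood test on 5 residual degrees of freedom), with 15487 genes tested and Benjamini-Hochberg adjustment over all of them at 0.05. SEs come from the F statistic. On simulated counts for model against control (dispersion 0.05 for every gene), 99% of 4-fold and 100% of 8-fold changes were recovered (100 genes each among 15243). The simulated spread was smaller than that fitted here, a coefficient of variation of 36.8%. These rates therefore check the code and do not give the share of such changes that the reported fit would find. DESeq2 1.42.0 and limma 3.58.1 served as alternatives. Depth of 9335913 to 23835724 counts puts 3 counts at 0.126 to 0.321 CPM. All 32 symbols matched RefSeq GRCr8. Genome coordinates of genes are not given because the files' build is not stated.

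Members, gene lists and tests were chosen with earlier results of these data known. Genes named are, per comparison, the up to 6 members higher and 6 lower in estimate with the smallest p and a mean of at least 1 CPM, and the member with the highest mean of each class. The 9 partner lists name up to 2 genes with the smallest p. Other members are named to account for the module, except 2 that enter the counts and are not reported here. The 16 marker lists gave these summed levels over all 8 samples where not printed in the results: astrocytes 1474 to 3716 CPM (1899 to 2832 in controls, 3716 and 1474 in models A and B), oligodendrocyte precursors 301 to 525 CPM, myelin 24497 to 74253 CPM (42201 to 67113 in controls, 46999 and 24497 in models A and B), endothelium 177 to 428 CPM, mural cells 79.4 to 142 CPM, and choroid plexus and ependyma 13.8 to 1368 CPM.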

Additional observations from a re-analysis of the deposited data

How the results depend on the processing

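The number of channel genes called in model against control was 0 in the reported fit, 5 with DESeq2, 5 with 11 columns as separate libraries and 1 with only the 2 groups compared. It ran from 0 to 5 when 1 sample was left out. In electroacupuncture against model it was 0, 3 with DESeq2, 7 with separate columns, and from 0 to 1 when 1 sample was left out. In electroacupuncture against control it stayed at 0 under all 17 alternatives. Total counts or DESeq2 size factors in place of TMM, limma-voom, no filter or a stricter filter on low counts, and the sets of columns as a term called no member in any comparison. Of 36 log2 fold changes followed, 5 changed sign, each without 1 sample: Scn1a in model against control (-0.07 without model B, up to 1.01 without model A), Cacna1b in electroacupuncture against model (0.06 without model B, down to -0.79 without model A), and, in electroacupuncture against control without electroacupuncture A, Scn4b (-0.44, up to 3.22), Scn9a (-0.32, up to 1.33) and Cacna1i (-0.02, up to 0.7), the upper values without electroacupuncture C. The cause was not tested. Without model A or B the lone model sample is assumed to vary like the other groups. No paired analysis was possible because the column names are not tied to the labelled samples, and the summed columns carry different numbers. Members under about 1 CPM rest on a few counts, where depth limits the estimate.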
